A study of Mus musculus with 4 samples.

Results

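The genes described here encode the proteasome of striatal spiny neurons and the proteins that assemble, activate or inhibit it. They were chosen by name, as the protein-coding genes whose mouse symbol begins with Psma, Psmb, Psmc, Psmd, Psme, Psmf or Psmg, with pseudogenes left out. The rule found 49 genes among the 37620 gene identifiers of the deposited count table and used no measured value. By role they are 8 core alpha subunits, 7 constitutive core beta subunits, 3 immunoproteasome or thymoproteasome subunits, 6 ATPases of the cap, 11 other cap subunits, 7 assembly chaperones, 6 further activators and inhibitors, and Psmc3ip. Psmc3ip encodes a meiotic recombination cofactor that binds a cap ATPase and is not a proteasome subunit. The immunoproteasome subunit gene Psmb9 was not analysed here.

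The proteasome is the large protease that degrades proteins tagged with ubiquitin. Its barrel-shaped core is built from rings of alpha subunits, which gate the entrance, and rings of beta subunits, some of which carry the proteolytic sites. A regulatory cap binds ubiquitin chains, removes them and unfolds the substrate with a ring of ATPases. Interferon induces alternative catalytic beta subunits, which form the immunoproteasome, together with the Psme1 and Psme2 activator, and both favour the production of peptides for MHC class I molecules. The proteasome is often discussed in Huntington's disease, in which a huntingtin protein with an expanded polyglutamine tract accumulates in neurons.

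RNA was sequenced from spiny projection neurons of the corpus striatum of male mice on a C57BL6/J background, aged 5 to 6 months. Neurons were sorted by EGFP fluorescence from mice carrying a Drd1-EGFP reporter (D1 neurons, of the direct pathway) or a Drd2-EGFP reporter (D2 neurons, of the indirect pathway), so every animal carried a reporter transgene. In the Q175 groups the mice were heterozygous for the zQ175 allele, a knock-in of an expanded CAG repeat into the mouse huntingtin gene, and in the WT groups they were wild-type littermates. With both reporters this made 4 groups. Every group was a single library, for which 150000 cells from each of 4 animals were pooled, so there were no replicates.

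The deposited counts summed to between 39444117 and 42787068 per library, and 1 normalized CPM (counts scaled to library size) stood for 38.2 to 43.8 counts. A count of 0 allows up to 3 counts, or 0.0685 to 0.0784 CPM. Drd1 was at 1300 and 771 CPM in the D1 WT and D1 Q175 libraries against 33.0 and 18.1 CPM in the D2 WT and D2 Q175 libraries, and Drd2 was at 8.58 and 3.37 CPM against 2076 and 1434 CPM. Both receptor genes thus marked the libraries as labelled. Htt was at 160 and 154 CPM in the D1 and D2 WT libraries and at 116 and 121 CPM in the D1 and D2 Q175 libraries, and these counts do not distinguish the alleles. Mitochondrially encoded genes took 6.06% and 6.49% of the counts in the D1 and D2 WT libraries and 8.98% and 11.1% in the D1 and D2 Q175 libraries. In bulk RNA, fewer cells of a type and less RNA per cell cannot be told apart.

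Proteasome genes took a nearly equal share of each library. They made up 0.286% of the counts of the WT library and 0.283% of the Q175 library in D1 neurons, and 0.274% and 0.282% in D2 neurons. On the normalized scale their summed level was 2953, 2729, 2818 and 2758 CPM in that order, highest in D1 WT. No sum differed from another by as much as the 1.2-fold used below to describe single genes.

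Across the 4 libraries, transcripts of the core and cap other than Psma8 ran from 20.8 to 127 FPKM. FPKM corrects for transcript length, and on this scale the 7 constitutive beta subunits spanned 62.6 to 121 in D1 WT, with a median of 73.8. Their medians were 76.2, 72.1 and 74.8 in D1 Q175, D2 WT and D2 Q175. The cap ATPases had median FPKM levels of 56.5, 54.3, 53.5 and 56.9 across D1 (WT, then Q175) and D2 (WT, then Q175), and the other cap subunits 54.9, 49.2, 49.8 and 49.6. Core alpha subunits, the nearly absent Psma8 included, had medians of 59.7, 57.8, 53.9 and 50.7. Of the core genes, Psmb4 was the highest in every library at 118 to 127 FPKM. Psma2 was the lowest of the 14 core genes that could be tested, at 20.8 to 23.8 FPKM. Assembly chaperones, which act before the particle is complete, lay lower, with medians of 13.3, 13.7, 11.9 and 12.5 FPKM.

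**Figure D1:**
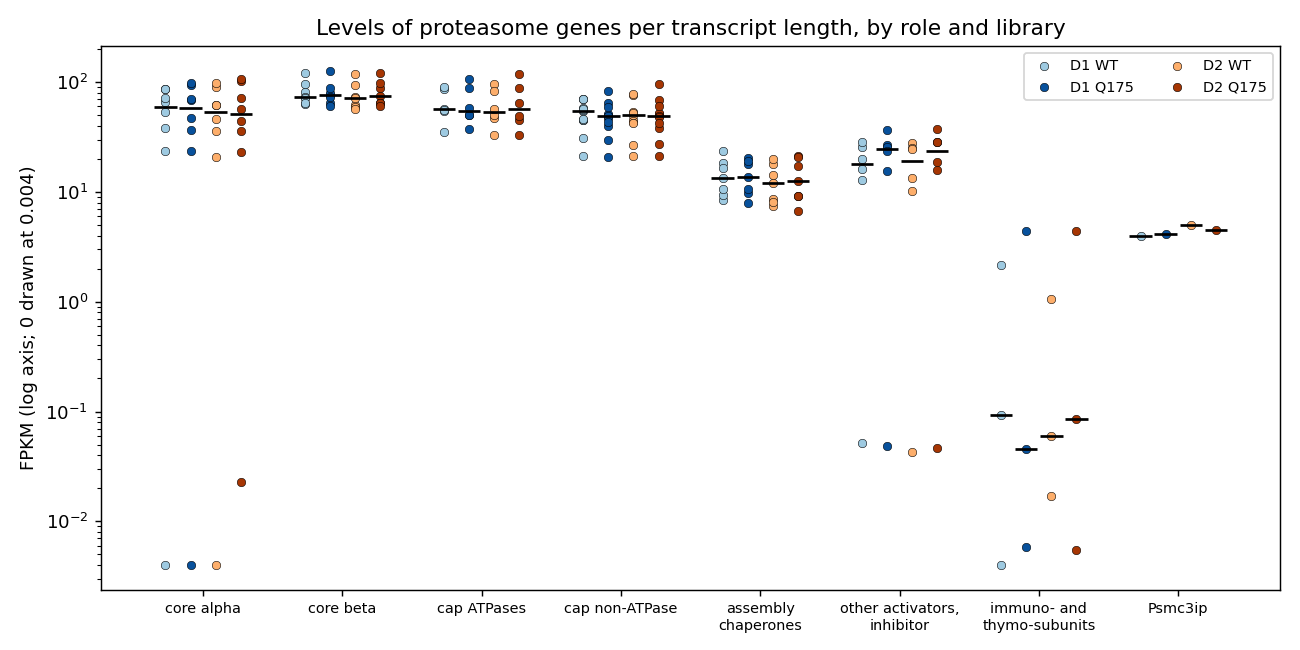
FPKM on a log axis for each proteasome gene in each of the 4 libraries, grouped by role; each point is 1 gene in 1 library, horizontal bars are medians, and genes listed at 0 are drawn at 0.004. Beta subunit medians lie at 72.1 to 76.2 FPKM, core and cap genes other than Psma8 run from 20.8 (Psma2 in D2 WT) to 127 (Psmb4 in D1 Q175), and Psmb10 is the one inducible catalytic gene between 1.06 and 4.40 FPKM, above Psmb8 and Psmb11.

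A few members were close to absent. Psma8, the alpha subunit of the testis, had 0 counts in D1 WT, D1 Q175 and D2 WT and 1 count in D2 Q175. Psmb11, the catalytic subunit of the thymoproteasome, had 0, 1, 3 and 1 counts in D1 (WT, then Q175) and D2 (WT, then Q175). Psmb8, the inducible counterpart of Psmb5, had 4, 3, 4 and 4 counts in the same order. Psme2b, a near-identical copy of Psme2, had 2, 2, 1 and 2 counts. These 4 genes failed the filter on low counts and were not tested, which left 45 genes.

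The genotype comparison asked which transcripts differed between Q175 and WT neurons in a fit to all 4 libraries that averages over D1 and D2. Of the 45 tested genes, 3 rose and 4 fell in Q175 at an adjusted p under 0.05 in edgeR's quasi-likelihood test with Benjamini-Hochberg adjustment, against 12.7% of all 16343 tested genes that rose and 13.9% that fell. Together 15.6% of the proteasome genes were called, compared with 26.6% of all genes. The 3 that rose were Psmb10, Psme1 and Psme2, all of them interferon-inducible genes in the textbook account. Those that fell were the cap genes Psmd7, Psmd13 and Psmd14 and the chaperone Psmd5, and none of the 4 falls was called by DESeq2 or without normalization factors. The median log2 difference was -0.05 over the 45 genes and -0.00062 over all tested genes. With library totals in place of the normalization factors these medians were 0.04 and 0.087. The fit has 1 residual degree of freedom, which is the departure of the genotype difference in D2 from that in D1 neurons. Each group was 1 pool, so the p-values do not measure the spread between pools of the same group.

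**Figure D2:**
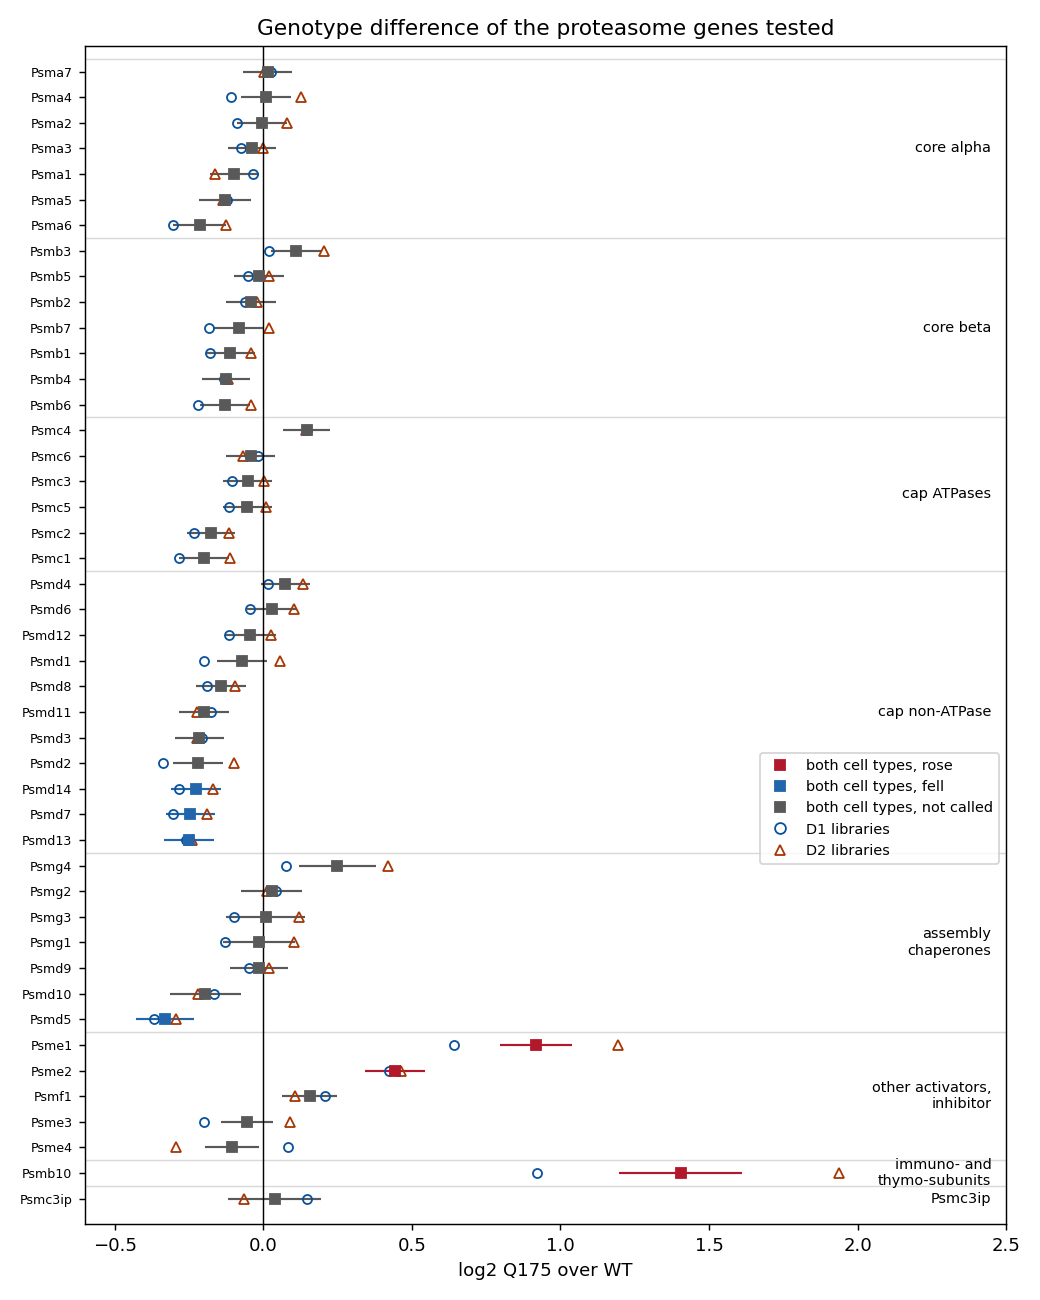
Log2 difference of Q175 over WT (horizontal axis) for the 45 tested genes, grouped by role; squares with bars are the estimate over both cell types ± 1 SE, circles the ratio of the D1 libraries and triangles that of the D2 libraries. Psmb10 at 1.41, Psme1 at 0.92 and Psme2 at 0.44 stand to the right, while core and cap genes lie between -0.25 and 0.15.

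Psmb10 encodes the inducible trypsin-like subunit that takes the place of Psmb7 in the immunoproteasome. Its level was 2.82 and 5.39 CPM in the D1 WT and Q175 libraries and 1.38 and 5.43 CPM in the D2 WT and Q175 libraries, from 108, 225, 55 and 238 counts. Both Q175 libraries were above both WT libraries, and the WT libraries differed from each other while the Q175 libraries lay together. Q175 was 1.89-fold higher in D1 neurons, a log2 ratio of 0.92 with a 95% counting interval of 0.59 to 1.28. In D2 neurons it was 3.83-fold higher, a log2 ratio of 1.94 with an interval of 1.55 to 2.42. Over both cell types Psmb10 (ENSMUSG00000031897) rose by 1.41 ± 0.21 (SE) on the log2 scale, with a Benjamini-Hochberg adjusted p of 1.68e-05 in edgeR. The order of the libraries, here and in the other called genes below, comes from the same counts as the call and is not separate evidence. The intervals here and below cover counting error only, because each group held 1 library. Reads that carry no molecular identifier need not be separate molecules, so the intervals may be too narrow even for that.

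Set against its constitutive counterpart, Psmb10 was a minor species in every library. On the FPKM scale Psmb10 was at 3.36% of Psmb7 in D1 WT, with a 95% counting interval of 2.75 to 4.07. The ratio was 7.29% (6.34 to 8.35) in D1 Q175, 1.85% (1.39 to 2.42) in D2 WT and 7.20% (6.28 to 8.22) in D2 Q175. The intervals of the Q175 libraries did not overlap those of the WT libraries. Psmb7 itself was at 76.6, 67.4, 67.9 and 68.8 CPM in D1 (WT, then Q175) and D2 (WT, then Q175) and was not called. Its exons share 11.8% of their bases with Nek6 on the opposite strand, and whether counting used strand is not given in the sources used here.

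Psmb8, the other inducible catalytic gene in the table, was too low for a difference to be read. It was at 0.130% of Psmb5 on the FPKM scale in the WT library and 0.0622% in the Q175 library of D1 neurons, and at 0.101% and 0.134% in those of D2 neurons. With 3 or 4 counts of Psmb8 per library these ratios have overlapping intervals, the widest reaching from 0.0366 to 0.345%, so that no difference was detectable at this depth.

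Psme1 and Psme2 encode the alpha and beta subunits of the ring-shaped activator that opens the core without ATP. Psme1 was at 14.2 and 22.2 CPM in the D1 WT and Q175 libraries and 10.5 and 24.2 CPM in the D2 WT and Q175 libraries, with both Q175 libraries above both WT libraries. Its log2 ratio was 0.64 (95% counting interval 0.49 to 0.80) in D1 and 1.195 (1.04 to 1.37) in D2 neurons. Over both cell types Psme1 (ENSMUSG00000022216) rose by 0.92 ± 0.12 (SE) on the log2 scale, with an adjusted p of 3.85e-06 in edgeR. Psme2 was at 18.4 and 24.6 CPM in the D1 WT and Q175 libraries and 18.7 and 25.8 CPM in the D2 WT and Q175 libraries. The WT libraries lay together, as did the Q175 libraries, and the groups did not overlap. Psme2 (ENSMUSG00000079197) rose by 0.44 ± 0.10 (SE) on the log2 scale, with an adjusted p of 0.00186 in edgeR, from log2 ratios of 0.42 (0.28 to 0.56) in D1 and 0.46 (0.33 to 0.60) in D2 neurons. Psme2 counts were not whole numbers and Psme2b is a near-identical copy, so that the division of reads between them is uncertain.

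**Figure D3:**
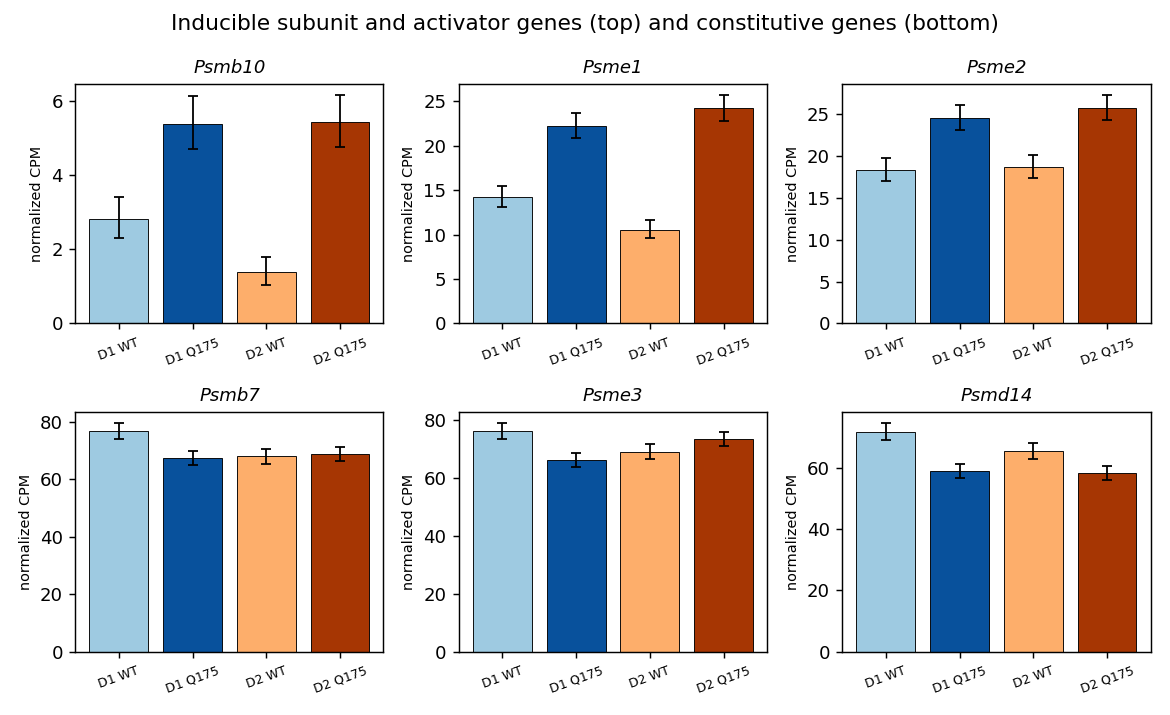
Normalized CPM (vertical axis, from 0) in each library for Psmb10, Psme1 and Psme2 in the top row and Psmb7, Psme3 and Psmd14 in the bottom row; bars are single libraries and whiskers 95% counting intervals. In the top row both Q175 bars stand above both WT bars, with Psmb10 at 5.39 and 5.43 CPM in Q175 against 2.82 and 1.38 CPM in WT.

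The remaining activators and the inhibitor were not called. Psme3, which forms a nuclear activator ring, was at 76.0, 66.1, 69.0 and 73.4 CPM in D1 (WT, then Q175) and D2 (WT, then Q175), so that Q175 was the lower library in D1 and the higher in D2. Psme4, a large single-chain activator, was at 117, 124, 132 and 108 CPM, the reverse order. Psmf1, which encodes an inhibitor of the core, was at 29.8, 34.5, 33.8 and 36.4 CPM. It was higher in Q175 in both cell types, at a log2 difference of 0.16 ± 0.09 (SE) and an adjusted p of 0.232 in edgeR.

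The promoters of the genes that rose together were read beside that of Psmb5, a constitutive catalytic gene that did not. The windows below run from 250 bases before to 50 bases after the start of each gene in RefSeq (GRCm38.p6), 5′ to 3′ on the gene's strand. The motifs, searched on both strands, were the antioxidant response element core TGACNNNGC, the CCAAT box CCAAT, the GC box GGGCGG, the interferon-stimulated element (a pair of GAAA blocks 2 bases apart) and the gamma-activated site TTCNNNGAA. Capitals mark matches on either strand, so a GC box on the other strand reads as CCGCCC and the interferon-stimulated element as a pair of TTTC blocks.
Psme1 promoter, chr14:55578244-55578543, plus strand: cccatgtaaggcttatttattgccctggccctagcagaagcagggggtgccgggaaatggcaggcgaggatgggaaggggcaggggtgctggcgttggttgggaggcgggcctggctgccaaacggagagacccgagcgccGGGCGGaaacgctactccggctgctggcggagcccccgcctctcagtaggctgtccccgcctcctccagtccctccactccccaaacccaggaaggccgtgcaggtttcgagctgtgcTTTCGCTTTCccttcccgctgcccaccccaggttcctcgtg
Psme2 promoter, chr14:55590972-55591271, minus strand: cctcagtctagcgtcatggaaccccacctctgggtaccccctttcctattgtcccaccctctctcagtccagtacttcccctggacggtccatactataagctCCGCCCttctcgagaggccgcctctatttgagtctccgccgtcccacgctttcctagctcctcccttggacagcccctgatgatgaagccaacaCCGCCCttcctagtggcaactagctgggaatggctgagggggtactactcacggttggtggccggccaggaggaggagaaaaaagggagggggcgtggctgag
Psmb10 promoter, chr8:105938343-105938642, minus strand: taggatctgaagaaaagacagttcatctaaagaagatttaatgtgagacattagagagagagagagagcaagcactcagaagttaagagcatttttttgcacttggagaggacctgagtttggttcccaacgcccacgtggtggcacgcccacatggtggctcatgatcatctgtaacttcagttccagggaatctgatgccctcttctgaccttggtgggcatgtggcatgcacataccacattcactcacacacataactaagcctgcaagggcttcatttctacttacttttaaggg
Psmb5 promoter, chr14:54617946-54618245, minus strand: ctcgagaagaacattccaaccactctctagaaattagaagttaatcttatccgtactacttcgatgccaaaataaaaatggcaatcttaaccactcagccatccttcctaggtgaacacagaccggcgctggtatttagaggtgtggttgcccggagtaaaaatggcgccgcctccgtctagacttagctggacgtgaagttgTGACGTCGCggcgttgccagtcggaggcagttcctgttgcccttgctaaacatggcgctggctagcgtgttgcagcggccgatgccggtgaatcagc
The Psme1 window held 1 GC box and 1 interferon-stimulated element, TTTCGCTTTC, and the Psme2 window held 2 GC boxes. The Psmb10 window held none of the motifs, and the Psmb5 window held 1 antioxidant response element core, TGACGTCGC. RefSeq windows were matched for 41 of the 49 genes, giving 44 windows of 300 bases. The interferon-stimulated element was in 5 of these windows (Psme1, Psmb3, Psmd4, Psmd9 and Psmg4), or 11.4%, compared with 3.44% of all 32851 windows. Of those 5 genes only Psme1 was called. The GC box was in 52.3% of the windows against 35.7% of all, the CCAAT box in 31.8% against 37.4%, the antioxidant response element core in 13.6% against 12.4% and the gamma-activated site in 6.82% against 8.30%. Motif matches are descriptions of letters and show no binding.

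Psme1 and Psme2 are close neighbours on chromosome 14, separated by Emc9 in the RefSeq gene order. Emc9 was at 22.1, 25.7, 19.0 and 21.2 CPM in D1 (WT, then Q175) and D2 (WT, then Q175) and was not called. Rnf31, next to Psme2, encodes a subunit of the linear ubiquitin ligase and rose by 0.28 ± 0.09 (SE) on the log2 scale (adjusted p 0.0253 in edgeR). Pck2, farther out on the side of Psme1, encodes a mitochondrial enzyme of phosphoenolpyruvate synthesis and rose by 0.97 ± 0.14 (adjusted p 1.34e-05 in edgeR), while Dcaf11, between Pck2 and Psme1, was not called. Beside Psmb10 on chromosome 8, Pskh1 rose by 0.31 ± 0.10 (adjusted p 0.0293 in edgeR) and Nrn1l fell by 1.25 ± 0.17 (adjusted p 6.23e-06 in edgeR). Ctrl and Lcat, the nearest genes on either side of Psmb10, were not called. Irf9 and Rec8, beyond Rnf31, were not called either. These neighbours were taken as the 3 on either side of each gene.

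Genes of interferon signalling and MHC class I presentation, the setting in which Psmb10, Psme1 and Psme2 are usually described, were read from a list of 28. Of the 18 that could be tested 7 rose and 1 fell, or 44.4% called, compared with 26.6% of all tested genes. H2-D1, a class I heavy chain, was at 5.91, 13.9, 6.59 and 17.7 CPM in D1 (WT, then Q175) and D2 (WT, then Q175) and rose by 1.33 ± 0.12 (SE) on the log2 scale (adjusted p 2.47e-08 in edgeR). H2-D1 shares long near-identical stretches with H2-K1, so its counts are uncertain. Erap1, an aminopeptidase that trims peptides for class I molecules, was at 0.654, 3.09, 0.503 and 3.54 CPM and rose by 2.51 ± 0.26 (adjusted p 1.16e-07 in edgeR). B2m, the class I light chain, rose by 0.70 ± 0.12 (adjusted p 0.000113 in edgeR). Tap1, Irgm1 and Igtp also rose. Irf8, a transcription factor known from microglia, fell by 0.81 ± 0.14 (adjusted p 8.82e-05 in edgeR). The 10 tested genes that were not called ran from Cd274 at -0.77 to Tap2 at 1.04 on the log2 scale, with Isg15 at 0.12 and Nlrc5 at -0.38. A further 10 genes of the list had too few counts to be tested. The list was chosen with earlier results of these data known, so its count is not independent evidence.

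Summed levels of the glial marker lists were higher in the Q175 library than in the WT library of each cell type. For reading the counts that follow, 12.7% of all tested genes rose and 13.9% fell. Summed over 15 microglial markers the level was 35.8 and 46.7 CPM in the D1 WT and Q175 libraries and 44.98 and 56.6 CPM in the D2 WT and Q175 libraries, and of the 14 markers tested Csf1r and Cx3cr1 rose and none fell, with estimates above 0 for all 14 and a median log2 difference of 0.39. The 2 that rose are a share near that of all genes. The 10 astrocyte markers summed to 184, 202, 223 and 278 CPM and 4 rose. The 10 oligodendrocyte markers summed to 364, 437.5, 395 and 515.5 CPM and 6 rose. The 10 endothelial markers summed to 13.1, 10.8, 15.5 and 14.0 CPM and of the 9 tested 2 fell, Emcn and Esam. Most of the endothelial sum was Esam, at 8.24, 6.39, 11.7 and 8.47 CPM, while 6 of the 9 estimates were above 0 and their median log2 difference was 0.35. Of the interneuron markers 2 of 9 tested rose, with sums of 15.6, 12.1, 8.68 and 12.3 CPM. Among 15 markers of spiny neurons, the sorted cells, 11 fell and 1 rose. No microglial marker was at 0 in any library. The part of glial RNA in the rise of Psmb10, Psme1 and Psme2 was not tested.

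**Figure D4:**
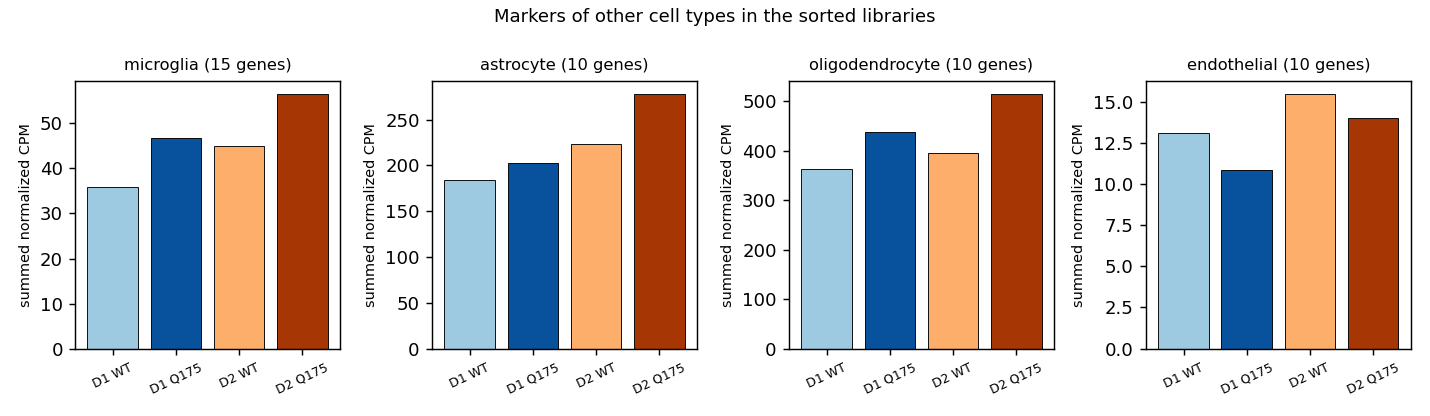
Summed normalized CPM (vertical axes, from 0) of the marker lists of microglia, astrocytes, oligodendrocytes and endothelial cells in each library; bars are single libraries. Within each cell type the Q175 library is above the WT library for the microglial, astrocyte and oligodendrocyte lists; the endothelial sum, most of it Esam, is lower in Q175.

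Among the cap genes the differences were small. Of the 11 cap subunits other than ATPases 3 fell, or 27.3% called against 26.6% of all tested genes, with a median log2 difference of -0.20. Psmd7, a lid subunit that pairs with Psmd14, was at 93.5 and 75.8 CPM in the D1 WT and Q175 libraries and 86.3 and 75.8 CPM in the D2 WT and Q175 libraries. It fell by 0.25 ± 0.08 (SE) on the log2 scale (adjusted p 0.0283 in edgeR). Psmd14, the metalloprotease that removes ubiquitin chains from substrates, was at 71.8, 58.9, 65.5 and 58.2 CPM and fell by 0.23 ± 0.08 (adjusted p 0.0472 in edgeR). Psmd13, a further lid subunit, was at 60.3, 50.3, 58.2 and 49.3 CPM and fell by 0.25 ± 0.08 (adjusted p 0.0308 in edgeR). For all 3 genes, which were called from these same counts, both Q175 libraries were below both WT libraries in CPM. In FPKM this did not hold for Psmd14, which was at 58.7, 51.5, 51.2 and 52.2, with D2 WT the lowest. Psmd13 shares 10.1% of its exon bases with Sirt3 on the opposite strand, so its counts are uncertain where strand was not used. The adjusted p of Psmd3 was 0.0520 and that of Psmd2 0.0566 in edgeR, just outside the threshold. At the other end Psmd4, a ubiquitin receptor of the cap, was at 84.3, 85.2, 91.3 and 100.1 CPM with a log2 difference of 0.07.

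The assembly chaperone Psmd5, which holds cap ATPases before the base is complete, was at 31.6 and 24.5 CPM in the D1 WT and Q175 libraries and 25.8 and 21.0 CPM in the D2 WT and Q175 libraries. Both Q175 libraries were below both WT libraries in CPM, and the D1 Q175 level was close to that of D2 WT. In FPKM the levels were 23.75, 18.07, 18.07 and 17.37 in the same order, so D1 Q175 was not below D2 WT. Psmd5 fell by 0.33 ± 0.10 (SE) on the log2 scale (adjusted p 0.0132 in edgeR). The 6 other chaperones were not called, from Psmd10 at -0.19 to Psmg4 at 0.25. Psmg4, a chaperone of alpha ring assembly, was at 9.23, 9.74, 8.05 and 10.8 CPM, 1.34-fold higher in Q175 in D2 neurons and 1.06-fold higher in D1 neurons.

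None of the 6 cap ATPases was called by edgeR. An unadjusted p under 0.05 in edgeR was found for 2 of them and for 6067 of all 16343 genes. Psmc4 had the highest estimate, with 102 and 113 CPM in the D1 WT and Q175 libraries and 112 and 123.5 CPM in the D2 WT and Q175 libraries and a log2 difference of 0.15 ± 0.08 (SE). Psmc4 passed the threshold with library totals in place of normalization factors, at 0.23 and an adjusted p of 0.0359 in edgeR. Psmc1 had the lowest estimate, with 89.6, 73.5, 73.1 and 67.7 CPM and a log2 difference of -0.20 ± 0.08.

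The core subunits gave no call in either direction in edgeR. Of the 7 tested alpha subunits, estimates lay between -0.21 for Psma6 and 0.01 for Psma7. Psma6 alone had an unadjusted p under 0.05 in edgeR, as had 6067 of all 16343 genes. Psma6 was at 57.2, 46.4, 48.7 and 44.7 CPM in D1 (WT, then Q175) and D2 (WT, then Q175), while Psma7 was at 75.4, 76.9, 82.3 and 82.4 CPM. The 7 constitutive beta subunits lay between -0.13 for Psmb6 and 0.11 for Psmb3, none with an unadjusted p under 0.05. Psmb5, the chymotrypsin-like catalytic subunit, was at 63.4, 61.2, 53.3 and 54.1 CPM, where the D2 libraries were both below the D1 libraries and the genotypes were close. Psmb6, the caspase-like catalytic subunit, was at 78.1, 67.1, 77.3 and 75.1 CPM, with only D1 Q175 apart. Psmb3, a non-catalytic beta subunit, was at 58.5, 59.3, 57.3 and 65.9 CPM, with D2 Q175 the highest. Psmc3ip, the gene that is no subunit, was at 4.31, 4.79, 5.69 and 5.43 CPM and was not called. It shares 21.2% of its exon bases with Mlx on the opposite strand.

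Over the 31 tested core and cap genes together, 0 rose and 3 fell in edgeR, or 9.68% called against 26.6% of all tested genes. An unadjusted p under 0.05 was found for 9 of the 31 and for 6067 of all 16343 genes. DESeq2 called 0 of the 3. Their median log2 difference was -0.08.

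Genes of the ubiquitin system that work with the proteasome were read from a list of 36, of which 35 were in the table and tested. None rose and 7 fell, or 20% called, compared with 26.6% of all tested genes, and the median log2 difference was -0.13. Ubqln1, a shuttle that carries ubiquitinated proteins to the cap, was at 107 and 72.4 CPM in the D1 WT and Q175 libraries and 87.5 and 65.3 CPM in the D2 WT and Q175 libraries and fell by 0.49 ± 0.08 (SE) on the log2 scale (adjusted p 7.74e-05 in edgeR). Uba6, a ubiquitin-activating enzyme, fell by 0.33 ± 0.10 (adjusted p 0.0143 in edgeR). Ecpas, an adaptor of the assembled proteasome, fell by 0.27 ± 0.08 (adjusted p 0.0172 in edgeR), and the shuttle Rad23b by 0.26 ± 0.08 (adjusted p 0.0211 in edgeR). The ubiquitin receptor Adrm1, the shuttle Ubqln2 and the ligase Stub1 also fell. The other ways of processing were read for proteasome genes only, so whether these 7 falls depend on the scaling was not tested. Library totals in place of the normalization factors moved the median of all genes by 0.09. Nfe2l1, the transcription factor known to raise proteasome genes when the particle is inhibited, was not called. Its log2 difference was -0.22 ± 0.08 (SE) with an adjusted p of 0.0574 in edgeR, just outside the threshold. Both its Q175 libraries were below both its WT libraries.

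Read 1 cell type at a time, 4 of the 31 core and cap genes had a log2 ratio above 0 in D1 neurons and 13 of 31 in D2 neurons, while Psmb10 and Psme1 had the higher ratio in D2. Of all genes, 4836 of 10926 in D1 and 4962 of 10961 in D2 had a ratio above 0. These ratios rest on 1 library per group, and neither they nor their difference could be tested. Among the 44 proteasome genes at 5 CPM or more in either D1 library, 3 were at least 1.2-fold higher in Q175 and 6 at least 1.2-fold lower, against 14.4% and 18.3% of 10926 genes. The 6 lower genes were Psmd5, Psmd2, Psmd7, Psma6, Psmc1 and Psmd14, and the median log2 ratio was -0.11 with 11 of 44 above 0, or -0.012 with library totals in place of the normalization factors. In D2 neurons 4 of 45 genes were at least 1.2-fold higher (Psmb10, Psme1, Psme2 and Psmg4) and 2 lower (Psmd5 and Psme4), against 15.5% and 19.7% of 10961 genes. Here the median log2 ratio was 0.00, with 23 of 45 above 0. Psmb10 reached the 5 CPM minimum in each cell type only through the Q175 library, so its place among the higher genes follows in part from that minimum. At a size of 2-fold, 0 genes were higher in D1, where 1.12% of all genes were, and Psmb10 and Psme1 were higher in D2, where 1.35% were. None was 2-fold lower in either, against 0.705% in D1 and 1.06% in D2. Counts of lower genes at the 1.2-fold size fell to 1 in D1 and 0 in D2 when library totals replaced the normalization factors, so they depended on the scaling.

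The comparison of D2 with D1 neurons called no proteasome gene. Of the 45 tested genes 0 rose and 0 fell in edgeR, against 6.08% and 6.79% of all tested genes, and DESeq2 called 0. An unadjusted p under 0.05 in edgeR was found for 4 of the 45 and for 4199 of all 16343 genes. The estimates ran from -0.39 for Psmb10 to 0.29 for Psmc3ip, with a median of -0.06. The 4 at an unadjusted p under 0.05 were Psmd5 at -0.26, Psmb5 at -0.21, Psmc1 at -0.21 and Psmd4 at 0.17 on the log2 scale, D2 over D1.

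Between the WT libraries 1 gene, Psmc3ip, was at least 1.2-fold higher in D2, having reached the 5 CPM minimum only there, and 4 were at least 1.2-fold lower (Psme1, Psmg3, Psmd5 and Psmc1), against 12.6% and 12.9% of 10838 genes. The median was -0.12 over 44 genes, with 11 above 0, against 4920 of all 10838 genes above 0. Every constitutive beta subunit was below 0, though the counting intervals of Psmb2, Psmb3 and Psmb6 included 0. None of the 44 was 2-fold apart, against 0.867% of all genes higher and 1.24% lower. Between the Q175 libraries none of 45 was 1.2-fold apart, against 9.24% higher and 11.8% lower of 11000 genes, or 2-fold apart, against 0.764% and 1.08%. The median there was 0.01 with 24 above 0, against 5228 of all 11000 genes above 0. The D1 WT library enters both the D1 genotype ratio and this WT ratio, so these figures are not separate. Psmb10 was 2.01-fold lower in D2 WT than in D1 WT, at a log2 ratio of -1.004 (95% counting interval -1.53 to -0.55), below the 5 CPM minimum in both. Between the Q175 libraries its log2 ratio was 0.01 (-0.26 to 0.28).

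Transcript length was examined because Q175 libraries differed from WT by length class across all genes. The length of a gene implied by the deposited counts and FPKM together could be computed for 43 proteasome genes with at least 200 counts in every library. Of these 34 fell in the shortest class of all such genes, 8 in the middle class and 1 (Psme4) in the longest. The median log2 genotype difference was -0.05 for the 34 short proteasome genes and 0.01 for all 3429 short genes. It was -0.05 against -0.04 in the middle class. Psme4 was at -0.11 and the long class at -0.09.

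The same implied length can shift when reads spread differently over the transcripts of a gene. None of the 43 genes shifted by 1.1-fold or more in the same direction in both cell types, against 1.82% of 10287 genes. The implied length of Psme1 was 856, 857, 995 and 865 bases in D1 (WT, then Q175) and D2 (WT, then Q175), with D2 WT apart. Its FPKM levels were 16.1, 26.9, 10.3 and 28.6 in the same order. That of Psmd1, a large scaffold subunit of the cap, was 1913, 1591, 1771 and 1642 bases, longer in both WT libraries.

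**Figure D5:**
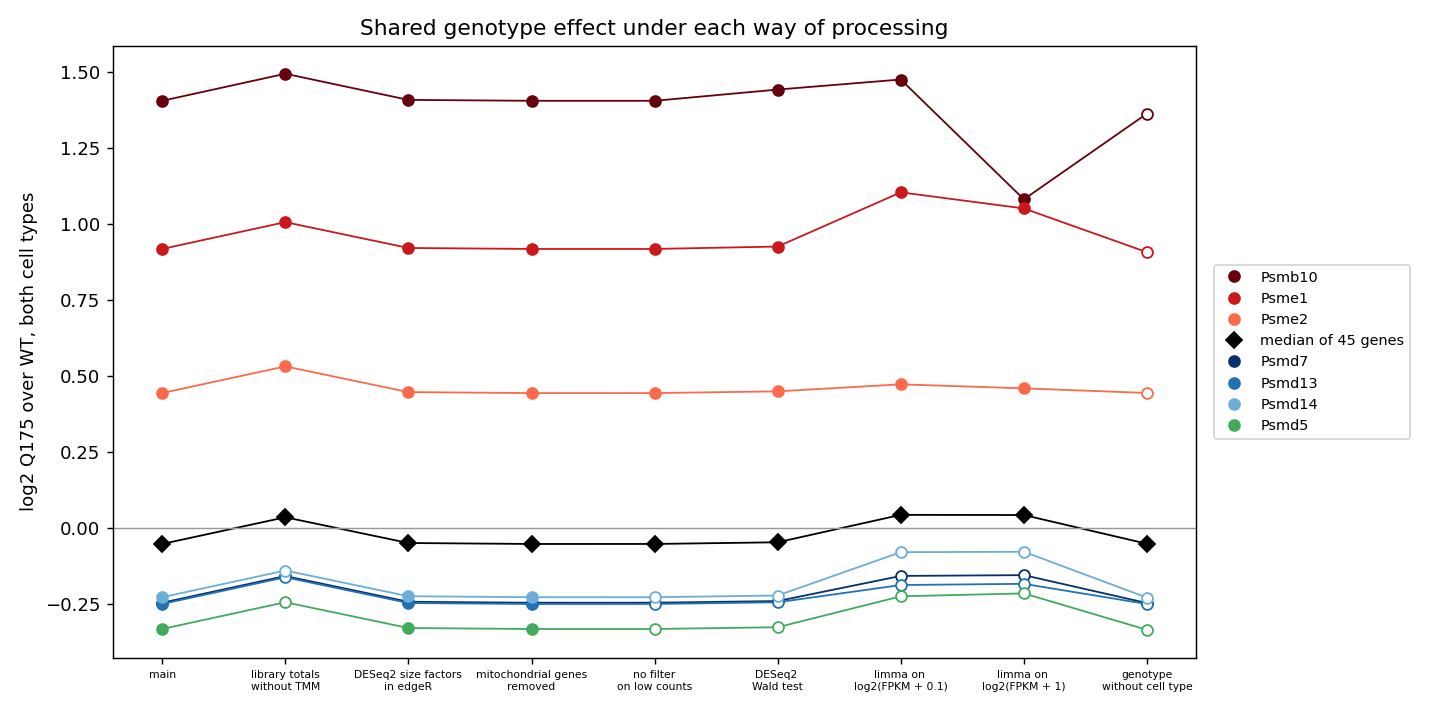
Log2 difference of Q175 over WT over both cell types (vertical axis) for 7 genes and for the median of the 45 tested genes under each way of processing (horizontal axis); filled circles passed an adjusted p of 0.05, open circles did not, and the median has no test. Psmb10, Psme1 and Psme2 are filled throughout except in the fit without a cell type term, whereas the 4 genes that fell are open in 6 of the 9 ways and the median crosses 0.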

How the data were processed

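The authors deposited expected counts (estimated counts) per Ensembl gene, without normalization. No header names this unit, which rests on 18.7% of the values having decimals; 22 of the 49 proteasome genes had whole counts throughout. The authors also deposited FPKM per gene, which is corrected for transcript length as well as depth, per the file headers. Software used upstream included CASAVA 1.8.2, per the submitters' processing notes. How reads were aligned and counted, on which build and with what use of strand, is not given in the sources used here.

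Counts were rounded and scaled with TMM (trimmed mean of M values) factors in edgeR 4.0.16 under R 4.3.3. Genes kept by filterByExpr, by group, were fitted with additive terms for cell type and genotype over all 4 libraries, with the quasi-likelihood test, two-sided, and Benjamini-Hochberg adjustment over all 16343 genes at 0.05. Ratios of 2 libraries used CPM with a prior count of 2 and 95% exact conditional binomial intervals, among genes at 5 CPM or more in either library. Alternatives used DESeq2 1.42.0 and limma 3.58.1. The edgeR fit and the ratio intervals were tested on simulated counts, whereas the DESeq2 and limma fits were not. The simulation held no cell type difference and no genotype difference that varied by cell type, so it cannot check how such differences affect the fit. Symbols were matched for 32897 of 37620 identifiers, and 3 pseudogenes were skipped. Values in every library are given for the catalytic, inducible and activator genes, and in each role group for called genes and the highest and lowest estimates; in pathway lists, for up to 4 genes in each direction. Genes named beyond this rule, such as the ratios past 1.2-fold, were chosen after their values were seen. The genes and lists were chosen with earlier results of these data known. In the interferon list 1 gene is counted but not reported here by name.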

Additional observations from a re-analysis of the deposited data

Results flagged for a closer look

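Psma4, Psme3 and Psme4 had genotype ratios of opposite sign in D1 and D2 neurons, each with a counting interval that excluded 0. The difference between the cell types was not tested, since each rests on 1 library per group. The log2 ratio of Psma4 was -0.11 in the D1 libraries and 0.13 in the D2 libraries, a difference of 0.23, D2 minus D1. For the nuclear activator Psme3 it was -0.20 and 0.09, a difference of 0.29. For the activator Psme4 it was 0.08 and -0.30, a difference of -0.38. Such a pattern was seen in 3 of 45 proteasome genes, or 6.67%, and in 514 of 11152 genes, or 4.61%. The implied transcript length of Psme4 was 5616, 5470, 5263 and 5949 bases in D1 (WT, then Q175) and D2 (WT, then Q175).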

How the results depend on the processing

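The rise of Psmb10, Psme1 and Psme2 passed the threshold under every alternative except a fit of genotype without cell type, where 0 genes rose and 0 fell and their adjusted p in edgeR was 0.157, 0.108 and 0.139; that fit called 2 genes up and 2 down over the whole table. The 4 falls were lost more widely. Library totals without TMM gave 0 genes that fell and a median log2 of 0.035, as they moved the median of all genes by 0.09, and the split over all genes from 2078 rises and 2276 falls to 2919 and 1421. No filter on low counts and the DESeq2 Wald test each gave 0 that fell; over all genes they called 1002 up and 1180 down, and 734 up and 1240 down. With limma on FPKM, 0 fell, 6 rose with a pseudocount of 0.1 and 5 with a pseudocount of 1, and the medians were 0.043 and 0.043; Psmc4 and Psmd4 were gained with both and Psmg4 with 0.1. Over all genes these limma fits called 2293 up and 1058 down with 0.1, and 2009 up and 925 down with 1. Their median shift of all tested genes from the main fit was 0.087 and 0.082, against 0.088 with library totals. The cause of these changes was not tested. DESeq2 size factors in edgeR and removal of mitochondrially encoded genes left both counts at 3 and 4.

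In D1 neurons the count at least 1.2-fold lower was 1 with library totals and with either FPKM ratio, the count higher was 5 with FPKM + 0.1, and the median was -0.012, 0.023 and 0.023 in that order. In D2 neurons the count lower was 0 with library totals and 1 with either FPKM ratio, and the count higher was 7 with both. Between WT libraries 2 genes were higher with either FPKM ratio, and between Q175 libraries 2 and 1 were lower with FPKM + 0.1 and FPKM + 1. The count of proteasome genes called between cell types was 0 under every alternative run, and no called gene changed direction, whereas some genes that were not called changed sign and the genotype median over both cell types and the D1 median crossed 0 as given above. No paired analysis was possible because each group held 1 library and the labels give no replicate numbers.

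The depth of 38.2 to 43.8 counts per CPM sets the limit for Psma8, Psmb8, Psmb11 and Psme2b, which had at most 4 counts in any library. With 1 library per group no replicate was left out, and a batch, pool or sort shared by both Q175 libraries cannot be told apart from genotype.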
